A study of Mus musculus with 2 samples.

Results

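The genes of MHC class II antigen presentation were examined in DX5- and DX5+ natural killer (NK) cells of mouse liver. By name, 10 genes were listed: the class II chains H2-Aa, H2-Ab1, H2-Eb1, H2-DMa, H2-DMb1, H2-Oa and H2-Ob, the invariant chain Cd74, the transactivator Ciita and the protease Ctss. Every probe set annotated to exactly 1 of these symbols was taken. This gave 17 probe sets for 9 of the 10 genes, of 18194 named genes on the array. H2-DMb1 had no probe set of its own, since the 2 that match it are shared with its neighbour H2-DMb2. The rule names no measured value, but the gene list was chosen with earlier results of these data known.

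Both populations came from the liver of untreated wild-type mice of the B6 strain and were sorted as cells bearing NK1.1 and lacking CD3. One was DX5-, the other DX5+; DX5 is an antibody to the integrin alpha 2 chain. RNA of each was labelled with biotin and hybridised to an Affymetrix expression array, with 1 array per population. The labels do not give the age or sex of the animals or how many were pooled. Without replicates no difference has a spread between samples, none was tested, and every fold below describes these 2 arrays. All values are from sorted bulk cells, in which fewer cells of a type and less RNA per cell cannot be told apart.

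Class II molecules show peptides from the endosome to CD4 T cells. An alpha and a beta chain (H2-Aa with H2-Ab1 form I-A) fold on the invariant chain CD74, which blocks the groove until proteases, cathepsin S among them, trim it to the CLIP peptide. The exchange factor H2-M (H2-DMa with H2-DMb1 or H2-DMb2) then swaps CLIP for other peptides, and H2-O (H2-Oa with H2-Ob) restrains H2-M. CIITA switches on class II chain genes and Cd74 through promoter factors bound at the X and Y boxes, and interferon gamma induces CIITA. Dendritic cells, B cells and macrophages are the classical class II cells. Resting mouse NK cells are not usually counted among them.

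Promoter stretches of 4 chains are shown, because letters of the X and Y boxes lie in a similar arrangement in genes whose ratios differed in sign. The stretches run from 110 to 31 bases before the RefSeq start, on the gene's strand, in build GRCm38.p6. Capitals mark the sequence GNAAC, part of many X boxes, and GATTGG, the core of the Y box:
H2-Aa (chr17:34287854-34287933, minus strand): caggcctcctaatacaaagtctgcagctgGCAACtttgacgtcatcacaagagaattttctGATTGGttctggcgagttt
H2-Eb1 (chr17:34305757-34305836, plus strand): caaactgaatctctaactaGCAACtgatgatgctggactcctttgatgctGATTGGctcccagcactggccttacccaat
H2-Oa (chr17:34092269-34092348, plus strand): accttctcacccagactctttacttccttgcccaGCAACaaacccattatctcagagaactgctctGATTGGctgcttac
H2-Ob (chr17:34238795-34238874, plus strand): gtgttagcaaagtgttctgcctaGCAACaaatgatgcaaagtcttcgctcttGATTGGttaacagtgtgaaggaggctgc

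The RefSeq promoter table held windows for 7 of the 10 genes, 8 windows in all, each from 250 bases before to 50 after the start. Searched on both strands, GATTGG lay in 6 of the 8 windows and in 16.1% of all 32851 windows. CCAAT, whose other strand lies inside GATTGG, gave the same 6 windows and 37.4% of all. GNAAC followed within 3 bases by GATG was found for H2-Eb1 and H2-DMb1 and in 2.41% of all windows. GNAAC followed after 20 to 35 bases by GATTGG, an arrangement chosen after the sequences were seen, was found for H2-Aa, H2-Eb1, H2-Oa, H2-Ob and H2-DMb1 and in 0.922% of all windows. In H2-Aa, H2-Oa and H2-DMb1 the space was 27 bases, in H2-Eb1 26 and in H2-Ob 24. Neither the Ctss window nor the window nearer H2-Oa of the pair listed for H2-DMa held GATTGG. These matches are letters in a window and not measured binding.

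Class II transcripts were measured in both populations and read lower in DX5- cells for 7 of the 8 genes above the detection limits. These 7 were H2-Aa, H2-Ab1, H2-Eb1, Cd74, H2-DMa, H2-Oa and Ctss, and the exception was H2-Ob. Most differences were small: 7 of the 8 genes were within 2-fold, and Ctss alone was past it. The median log2 ratio, DX5- minus DX5+, was -0.52 over the 8 genes and -0.02 over all 10760 detected genes. Among all detected genes 51.6% read lower in DX5- cells by any amount. At 1.5-fold or more, 3 of the 8, Ctss, H2-Ab1 and H2-DMa, were lower (all detected genes: 14.1%) and 1 was higher (10.8%). At 2-fold or more, 1 was lower (5.67%) and 0 were higher (3.78%).

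Detected here means above the limit on at least 1 of the arrays: of the 10760 detected genes 9439 were above it on both, as were all 8 detected class II genes, and where 1 array was below, its value was set to the limit. The limit was set on each array from 148 probe sets of gene families with little expected use in these cells. It was 74.9 intensity units for DX5- cells and 79.4 for DX5+ cells. Across all genes, 2-fold or more separated the arrays for 407 that read higher and 610 that read lower in DX5- cells. With median centring these counts were 577 and 445, and with scaling to the 18 hybridisation spike-in probe sets 709 and 395. The spike-ins, controls added at hybridisation, had a median log2 ratio of -0.22. Median centring moved the median of all genes to 0.12 and spike-in scaling moved it to 0.19, and the median of the class II genes with spike-in scaling was -0.30. All 8 detected class II genes kept the sign of their ratio under every scaling tried.

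As a partial measure of error, probe sets of the same gene were compared. Over 4438 genes with several measurable probe sets, ratios (log2) varied between probe sets of a gene with an SD of 0.34. This covers probe noise only and leaves out differences between cell preparations. All 8 detected class II genes were further than this SD from 0, as were 46.1% of all detected genes. Ctss (-1.19) and H2-Ab1 (-0.73) were the furthest from 0 among the 8. The H2-Ab1 value is that of its brightest probe set, and its other probe sets gave -0.56 and -0.47. Of all detected genes 3.78% had a lower ratio than Ctss and 10.1% a lower one than H2-Ab1.

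**Figure D1:**
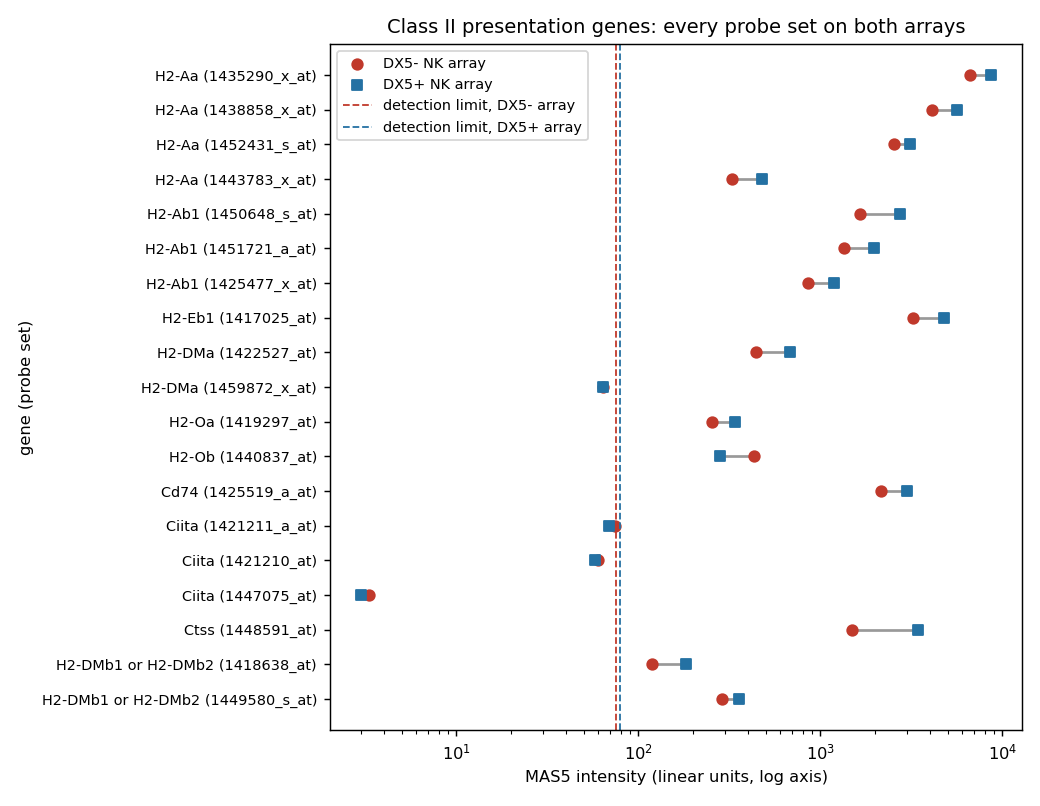
MAS5 intensity (log axis) of every probe set of the class II presentation genes on the DX5- array (circles) and the DX5+ array (squares), with each array's detection limit as a dashed line; the bottom pair of probe sets is shared by H2-DMb1 and H2-DMb2. Of the 13 probe sets of the listed genes above both limits, 12 read lower on the DX5- array, and the probe set of H2-Ob is the exception.

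Among the chains that present peptide at the surface, H2-Aa, the alpha chain of I-A, was covered by 4 probe sets. Where values are paired below, the DX5- array comes first. The brightest H2-Aa probe set (1435290_x_at) read 6616 in DX5- against 8642 in DX5+ cells, 1.31-fold lower in DX5- cells. The other 3 read 4089 against 5648, 2541 against 3112, and 326 against 478. All 4 thus lay on the same side, with log2 ratios between -0.55 and -0.29 and a mean of -0.42 ± 0.11 (SD over 4 probe sets, not samples). All 4 carry a suffix (_x_at or _s_at) that marks probes able to match more than 1 transcript, so related sequences can add to them.

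H2-Ab1, the beta chain of I-A, had 3 probe sets. They read 1639 against 2728 (1450648_s_at), 1345 against 1980 and 850.5 against 1181, DX5- first. Each was lower in DX5- cells, by 1.66-fold, 1.47-fold and 1.39-fold, and the mean log2 ratio was -0.59 ± 0.13 (SD over 3 probe sets). H2-Ab1 had the second lowest ratio of the 8 genes, and 10.1% of all detected genes had a lower one.

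H2-Eb1, the beta chain of I-E, read 3237 in DX5- against 4759 in DX5+ cells (1417025_at, 1.47-fold lower). Its alpha chain partner H2-Ea is known to be defective in B6 mice and is listed as a transcribed pseudogene by RefSeq. All 3 probe sets of H2-Ea were below the limits on both arrays, at 33.0 against 44.0, 21.4 against 17.6 and 0.7 against 7.9. The H2-Ea probe sets thus gave no signal that goes against the labelled strain. H2-Eb2, a further beta chain gene, was also below both limits, at 66.7 against 50.1.

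Cd74, the invariant chain that escorts new class II molecules to the endosome, read 2149 against 2991 (1425519_a_at, 1.39-fold lower in DX5- cells). Its log2 ratio of -0.48 lay between those of H2-Aa (-0.39) and H2-Eb1 (-0.56). Over Cd74 and the surface chains H2-Aa, H2-Ab1 and H2-Eb1 the log2 ratios ran from -0.73 to -0.39. Differences between these genes were not tested, and H2-DMa (-0.62) and H2-Oa (-0.42) had ratios in the same range.

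Ctss, which encodes cathepsin S, the protease that makes the late cuts in the invariant chain, stood furthest from 0. It read 1497 in DX5- against 3423 in DX5+ cells (1448591_at), 2.29-fold lower in DX5- cells. Of all detected genes 3.78% had a lower ratio. With spike-in scaling the log2 ratio of Ctss was -0.98, short of 2-fold. Without Ctss the median log2 ratio of the other 7 genes was -0.48.

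Of the exchange factor genes, H2-DMa, the alpha chain of H2-M, read 441 against 678 (1422527_at, 1.54-fold lower in DX5- cells). Its other probe set, at 63.5 against 63.9, was below both limits and gives no ratio. The beta chain could not be assigned to H2-DMb1: a pair of probe sets matched H2-DMb1 and H2-DMb2 alike and read 289 against 358 and 119 against 182, both lower in DX5- cells. H2-DMb2 itself had 3 probe sets that lay on both sides, at 518 against 499, 382 against 440 and 374 against 278. The H2-M beta chains thus gave no single direction, and these near-identical copies can share probes.

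The chains of H2-O, the brake on H2-M, read in opposite directions. H2-Oa, the alpha chain, read 253 against 339 (1419297_at), 1.34-fold lower in DX5- cells. H2-Ob, the beta chain, read 432 against 282 (1440837_at), 1.54-fold higher in DX5- cells. H2-Ob had a higher ratio than 90.1% of all detected genes and was the 1 detected class II gene above 0. Each rests on 1 probe set that was above the limit on both arrays.

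Ciita, the transactivator, was not detected on either array. Its 3 probe sets read 74.7 against 68.7, 60.1 against 57.9 and 3.3 against 3.0. The brightest of them fell short of the DX5- limit by less than 1 unit, and with the limit at the array median it was above that limit on the DX5- array alone. No fold is given for Ciita, so the level of the switch could not be compared between populations that both had measurable H2-Aa, H2-Ab1, H2-Eb1 and Cd74.

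**Figure D2:**
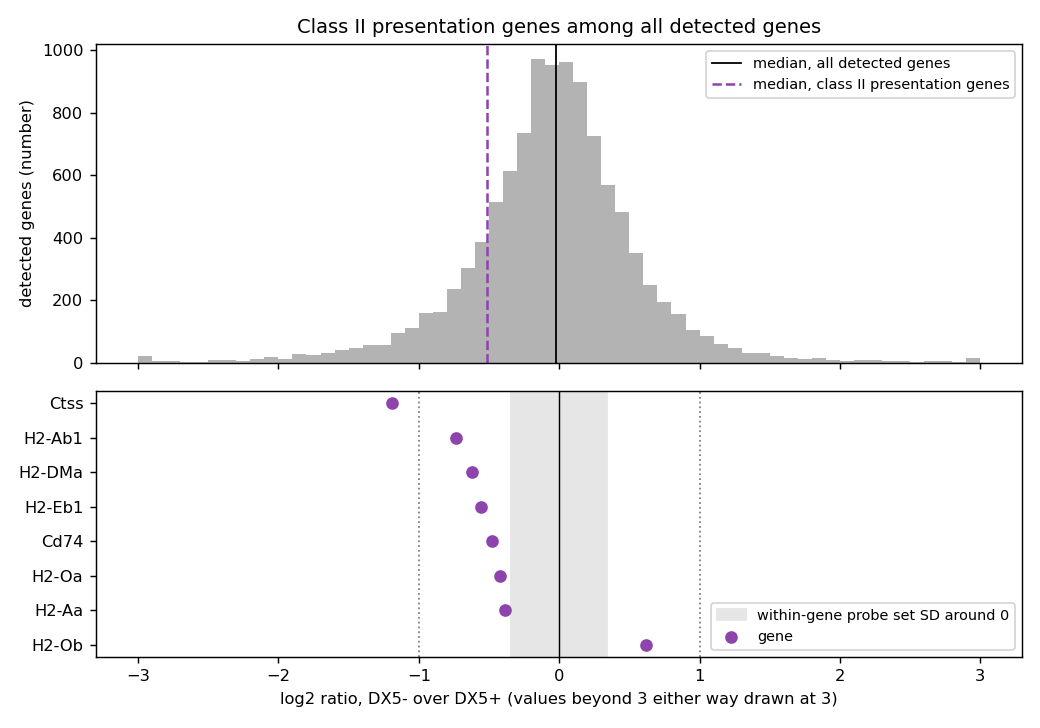
Top, number of detected genes by log2 ratio of DX5- over DX5+, with the median of all genes (-0.02, solid line) and of the class II presentation genes (-0.52, dashed line). Bottom, the 8 detected class II genes, with the SD between probe sets of a gene (0.34) shaded around 0 and dotted lines at 2-fold; Ctss alone lies past 2-fold and H2-Ob alone lies to the right of 0.

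Genes that share a chromosomal neighbourhood with the class II chains did not all read lower in DX5- cells. In RefSeq order along chromosome 17, the genes Psmb9, Tap1, Psmb8 and Tap2 lie between H2-DMb1 and H2-Ob. They supply peptides to class I molecules, as immunoproteasome subunits (Psmb8, Psmb9) and as the peptide transporter (Tap1, Tap2). Psmb8 read 4365 against 3359 and Tap2 1552 against 1201, DX5- first. Psmb9 read 1313 against 1091 and Tap1 1855 against 1925. Thus 3 of the 4 read higher in DX5- cells, where 51.6% of all detected genes read lower. H2-Ab1, H2-Aa and H2-Eb1, the next genes after H2-Ob, read lower. Brd2, which lies between H2-Oa and H2-DMa, read higher, at 8025 against 6051. All of these were within 2-fold, and Tap1, at a log2 ratio of -0.05, turns above 0 with median centring or spike-in scaling. Psmb9 (0.27) was also nearer to 0 than the probe set SD of 0.34, and Psmb8 (0.38) and Tap2 (0.37) were just past it.

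**Figure D3:**
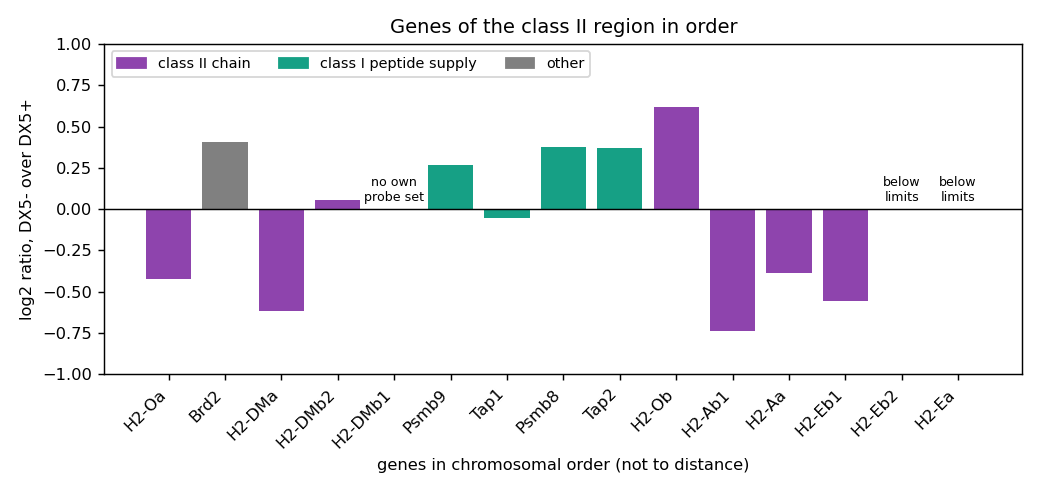
Log2 ratio of DX5- over DX5+ for the 15 protein-coding and pseudogene entries from H2-Oa to H2-Ea in chromosomal order (spacing not to distance). Measured class II chains (purple) lie below 0 except H2-DMb2 and H2-Ob, and the class I peptide supply genes between them (green) lie above 0 except Tap1.

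The class I pathway as a whole was set beside the class II genes. Of 16 detected class I presentation genes, 2 were higher in DX5- cells by 2-fold or more (all detected genes: 3.78%). In the same list 1 was lower by 2-fold or more (all detected genes: 5.67%). The median log2 ratio of the 16 was 0.32 against -0.52 for class II. Nlrc5, the transactivator of class I genes and a relative of Ciita, read 2659 against 1205 (2.21-fold higher). Tapbpl, a peptide editor of class I, read 2013 against 865 (2.33-fold higher), and H2-Q10, a secreted class I molecule of liver, 203 against 480 (2.36-fold lower). The class I chains on every nucleated cell differed little: B2m read 33856 against 33536 and H2-K1 27013 against 28428. Class I chain genes are similar in sequence, so the H2-Q10 and H2-K1 values may share signal. The difference between the class I and class II medians was not tested.

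Genes that act with cathepsin S in the endosome had a median below 0, like the class II set. Of 14 detected endosomal proteases and partners, 9 read lower (all detected genes: 51.6%) and 5 higher in DX5- cells, with a median of -0.38. By 2-fold or more, 1 was lower (all detected genes: 5.67%). That gene was Ctsh (cathepsin H), at 250 against 673, 2.69-fold lower. Ifi30, a thiol reductase that unfolds antigens, read 907 against 1281, and Lgmn, the asparaginyl endopeptidase, 152 against 250. Ctsb (cathepsin B) and Cst7 (cystatin F) lay on the other side, at 3374 against 2408 and 3460 against 2412. With spike-in scaling the median of the 14 genes was -0.16.

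Genes that act at the class II promoters or upstream of Ciita were examined next. All 8 promoter factor genes were detected and 8 were within 2-fold (median 0.12). Of all detected genes 5.67% were lower and 3.78% higher by 2-fold or more, so most genes were within it. The largest ratios were those of Creb1 (1359 against 774, 1.76-fold higher), the X2 box factor, and Nfya (378 against 586, 1.55-fold lower), a subunit of the Y box factor NF-Y. The RFX subunits, which bind the X box, read 500 against 662 for Rfx5, 1837 against 1265 for Rfxap and 359 against 293 for Rfxank. Factors of the X and Y boxes thus lay on both sides of 0.

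The median of 9 detected genes of interferon gamma signalling and Ciita induction was 0.11. By 2-fold or more, 1 of them was higher in DX5- cells (all detected genes: 3.78%). It was Socs1, a feedback inhibitor of the pathway, at 557 against 198, 2.81-fold higher in DX5- cells. Ifng read 14891 against 11958 and its receptor chain Ifngr1 14916 against 18620. Of 5 detected repressors and turnover genes 0 were past 2-fold (all detected genes: 5.67% lower, 3.78% higher). Their median was -0.17, with median centring -0.03 and with spike-in scaling 0. Each of these medians is the value of Zbtb32 (31.3 against 84.5), which was above the limit on the DX5+ array alone. They are thus bounds set by the limits and not measured ratios. Prdm1, a repressor of Ciita, read 1206 against 1803, and Ezh2, a histone methyltransferase, 370 against 502. Marchf1, the ligase that removes class II from the surface, was below both limits.

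Of 7 detected co-stimulatory and inhibitory ligands of presenting cells 0 were past 2-fold (all detected genes: 5.67% lower, 3.78% higher). Their median was 0.06. Pdcd1lg2 read 1195 against 619 and Cd274 4281 against 2400, both ligands of the checkpoint receptor PD-1 and both higher in DX5- cells. Cd40, a receptor for T cell help, lay on the other side at 138 against 239, as did Tnfsf4, the OX40 ligand, at 356 against 611. Cd80 was below both limits. The list as a whole lay on both sides of 0.

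**Figure D4:**
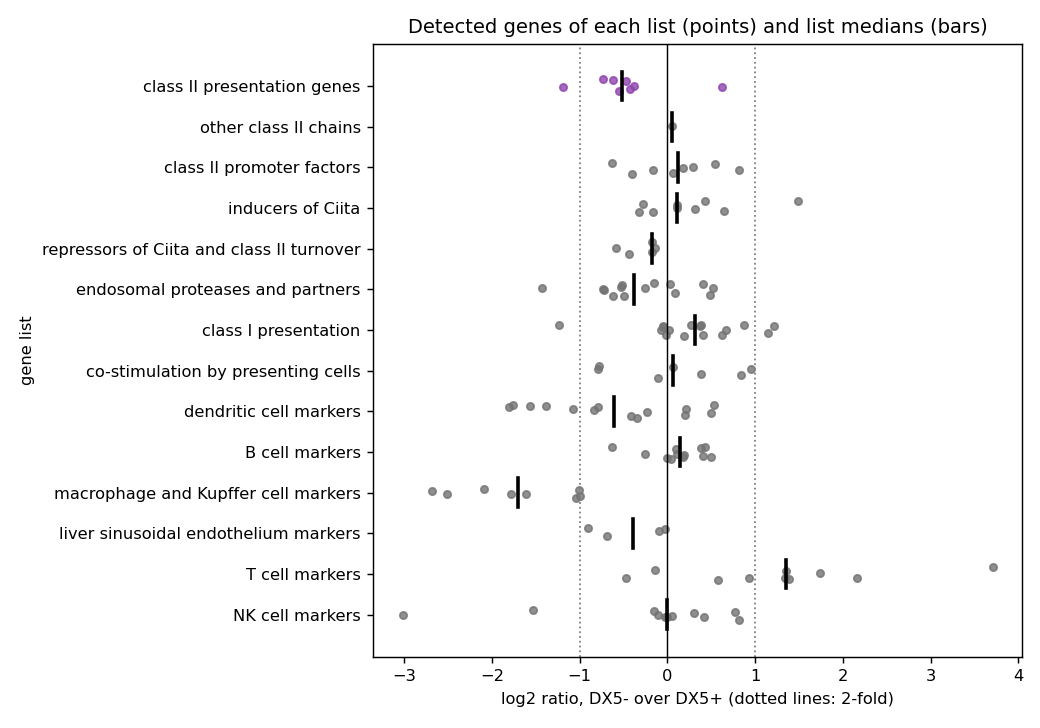
Log2 ratio of DX5- over DX5+ for each detected gene (points, moved slightly up or down to part them) of the class II set (purple), of other pathway lists and of cell type marker lists (grey), with list medians as bars and dotted lines at 2-fold. The class II, endosomal protease, dendritic cell and macrophage medians lie at -0.52, -0.38, -0.61 and -1.70, and the class I and B cell medians at 0.32 and 0.15.

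Markers of the classical class II cells were read on the same arrays, and the lists lay on different sides of 0. Of 18 macrophage and Kupffer cell markers with a probe set of their own, 8 were detected (median -1.70). By 2-fold or more, 7 of these were lower in DX5- cells (all detected genes: 5.67%). They were Lyz1 (323 against 2070), Itgam (135 against 773), Mpeg1 (516 against 2190), Lyz2 (278 against 956), Csf1r (75.9 against 233), Cd68 (176 against 360) and Cd14 (260 against 524). On the DX5- array Csf1r was just above the limit of 74.9. Summed over the 18 genes, the intensity was 2074 against 7557. The 10 markers below both limits included the Kupffer cell genes Clec4f, Vsig4, Timd4, Marco and Cd163 and the complement genes C1qa, C1qb and C1qc. Itgam is also a gene of mature NK cells. With no detection limit the median of the list was -1.10, and with the mean over probe sets -1.23. Without _x_at and _s_at probe sets it was -1.62.

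Of 15 dendritic cell markers 14 were detected, 12 of them on both arrays. In DX5- cells 10 read lower (all detected genes: 51.6%) and 4 higher (median -0.61). By 2-fold or more, 5 were lower (all detected genes: 5.67%) and 0 were higher (3.78%). The 5 were Ccr9 (1349 against 4731), Siglech (130 against 441), Tcf4 (669 against 1986), Irf8 (10206 against 26592) and Ccr7 (731 against 1543). The 4 on the other side were Itgax, the CD11c gene (5739 against 3971), Irf4 (910 against 645), Bst2 (805 against 694) and Fscn1 (274 against 238). Genes used by plasmacytoid dendritic cells thus lay on both sides, Siglech, Tcf4 and Ccr9 below 0 and Bst2 above it. Over the 15 genes the summed intensity was 21620 against 42013, a 1.94-fold gap. Most of it came from Irf8, which NK cells use as well: without Irf8 the sums were 11414 against 15421, 1.35-fold. Flt3, a receptor of dendritic cell growth, and Cd209a were above the limit on the DX5+ array alone (70.6 against 130 and 49.1 against 133), and Xcr1 was below both limits. A stricter limit, at the 99th percentile (141 for DX5- and 123 for DX5+ cells), gave this list a median of 0. That value is a bound and not a measured ratio. Flt3, Batf3 and Cd209a then passed on the DX5+ array alone, with values below the DX5- limit, and their ratios were set to 0.

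B cell markers had a median above 0. Of 14 with a probe set of their own 12 were detected, with a median of 0.15. Past 2-fold were 0 of the 12 (all detected genes: 5.67% lower, 3.78% higher). The largest ratios were those of Blnk (682 against 1058) and Bank1 (265 against 187), and the summed intensity was 7203 against 6835. Ms4a1, the CD20 gene, read 448 against 343. Cd79a, part of the B cell receptor, was below both limits. Macrophage and dendritic cell list medians were thus below 0 with that of the class II genes, and the B cell median was above 0. The part of any of these cells in the class II difference was not tested.

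The sorted cells themselves were checked by NK markers, all 11 of which were detected on both arrays. Of these, 9 were within 2-fold (median -0.00038). The 2 others were lower in DX5- cells by 2-fold or more (all detected genes: 5.67%). They were Eomes (1991 against 16107) and Prf1 (3108 against 8978). T cell markers, whose surface product CD3 the sort excluded, had a median of 1.35 over 10 detected genes. By 2-fold or more, 6 of them were higher in DX5- cells (all detected genes: 3.78%). These were Cd3g, Cd3e, Cd3d, Trat1, Lat and Cd8a. Cd5 and Cd6 were higher within 2-fold. The 2 that read lower were Cd28 (7668 against 8442) and Cd8b1 (29.6 against 104), the latter above the limit on the DX5+ array alone. Cd4 and Themis were below both limits. With the mean over probe sets the T cell median was 0.97. Sinusoidal endothelium, another liver cell able to present antigen, had 4 of 10 markers detected and 0 past 2-fold (median -0.39), with Stab2 at 80.5 against 151, Egfl7 at 75.8 against 122, Pecam1 at 835 against 892 and Kdr at 112 against 115. With the limit at the 99th percentile, or with the mean over probe sets, that median was -0.10.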

How the data were processed

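Per the labels, total RNA from sorted liver cells was hybridised to Affymetrix arrays. Per the submitters' processing notes, the authors made the deposited intensities with MAS5, which gives 1 linear value per probe set and scales each array by 1 factor. No source used here gives its version or settings. The table held 45101 probe sets (64 controls) and no detection calls. With 1 array per population the precision could not be estimated.

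Of 35890 annotated probe sets, 34958 had 1 gene symbol and 932 several; 9211 are unnamed here. Of the former, 34754 matched RefSeq (GRCm38.p6) by gene identifier. A gene was represented by the probe set brightest on average (mean log2 intensity). Log2 ratios were taken from the intensities as deposited. Limits were the 95th percentile of 148 probe sets for taste, olfactory and vomeronasal receptors, lens crystallins, opsins and keratin-associated proteins. A value below its limit was set to the limit where the other array was above. If the ratio then favoured the array below its limit, it was set to 0.

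No test between groups was possible. All listed genes with their probe sets were reported; of other lists, genes past 2-fold or otherwise those furthest from 0, plus genes named for their role after their values were seen. Members and lists were chosen with earlier results of these data known. Steps were tested on simulated data. Python 3.11.15, pandas 2.3.3 and NumPy 2.4.6 were used.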

Additional observations from a re-analysis of the deposited data

How the results depend on the processing

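11 alternatives were run: median centring, quantile normalization, intensity-dependent centring, spike-in scaling, limits at the 99th percentile, at the array median or absent, the mean over probe sets, leaving out _x_at and _s_at probe sets, an offset of 32, and, added after the data were seen, the Crybg genes counted as crystallins. All 8 detected class II genes that an alternative could measure kept their sign. With spike-in scaling 0 of them were at least 2-fold lower in DX5- cells, in place of 1. H2-Aa ranged from -0.44 to -0.17, H2-Ob from 0.57 to 0.84 and Ctss from -1.22 to -0.98; H2-Aa had no value without _x_at and _s_at probe sets. No replicate exists to leave out. No paired analysis was possible because each population had 1 array. Signal near the limits left Ciita without a ratio.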
